A study of Mus musculus with 3 samples.

Results

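The 49 genes described here are transcribed for or used in the S phase of the cell cycle, when DNA is copied. They are 49 of the 31053 gene symbols in the raw files and were chosen by name, for their known part in S phase, and not by their values. All 49 were found. They were grouped by role into 13 genes of helicase licensing and firing, 12 of polymerases, clamp and clamp loader, 5 of nucleotide supply, 9 of chromatin assembly and methylation copying, 8 of fork protection and repair, and 2 cyclin E genes.

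Whole neuroblastomas of 3 mice, 1 tumor per mouse, were profiled by droplet single-cell RNA sequencing of transcript 3' ends, and expression was counted as unique molecular identifiers (UMIs). All 3 mice were heterozygous for the TH-MYCN transgene, in which the tyrosine hydroxylase promoter drives human MYCN in cells of the sympathetic lineage. Tumors 1, 2 and 3 were taken at 62, 79 and 63 days of age. There was 1 group and no treated or transgene-free animal, so every comparison is between cell classes within these tumors, and the tumor is the replicate (n = 3).

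Before a cell divides, MCM2 to MCM7 proteins are loaded on replication origins by CDC6 and CDT1 and, with CDC45 and GINS, become the helicase that opens the DNA. PCNA, placed by replication factor C, holds polymerases on the template, while ribonucleotide reductase, thymidylate synthase and dUTPase keep the nucleotide pool filled and clean, and CAF-1, NASP and DNMT1 rebuild chromatin and its methylation behind the fork. Most of these genes are induced together by E2F factors as a cell leaves G1, and their transcripts are therefore read as a sign of cycling cells.

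Because E2F-bound promoters are a shared feature of this gene family that the choice of members did not use, promoter sequence was examined. RefSeq promoters of the GRCm38.p6 build, from 250 bases before to 50 after a RefSeq start, were matched for 39 of the 49 genes, as 47 promoters. An E2F match, defined as TTTCCCGC or TTTGGCGC on either strand, was found in 29.8% of the member promoters (14 of 47, in 14 genes) and in 1.56% of all 32851 mouse promoters in the table. The CCAAT box, searched as CCAAT on either strand, was in 55.3% of member promoters and 37.4% of all, and the cell cycle homology region, searched as TTTGAA on either strand, was in 12.8% and 17.9%. No motif's letters are contained in another's. These are letter matches and not measured binding sites. Shown here are the 6 promoters with an E2F match that belong to the genes with the highest level in tumor-like cells, written 5′ to 3′ on the strand of the gene in lower case, with the E2F match in capitals.
Mcm7 promoter, chr5:138171834-138172133, minus strand: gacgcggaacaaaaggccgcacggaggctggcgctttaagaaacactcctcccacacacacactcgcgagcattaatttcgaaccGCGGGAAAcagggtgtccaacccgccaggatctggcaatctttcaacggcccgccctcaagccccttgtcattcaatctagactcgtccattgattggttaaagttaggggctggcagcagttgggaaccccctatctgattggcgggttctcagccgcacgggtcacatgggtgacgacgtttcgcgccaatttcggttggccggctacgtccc
Hells promoter, chr19:38930740-38931039, plus strand: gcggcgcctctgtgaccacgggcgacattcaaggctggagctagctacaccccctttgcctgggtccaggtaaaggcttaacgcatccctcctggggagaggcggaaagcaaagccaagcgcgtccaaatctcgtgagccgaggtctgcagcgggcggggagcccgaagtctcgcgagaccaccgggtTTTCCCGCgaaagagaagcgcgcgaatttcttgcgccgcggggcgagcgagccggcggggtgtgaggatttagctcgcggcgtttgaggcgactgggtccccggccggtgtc
Dnmt1 promoter, chr9:20952574-20952873, minus strand: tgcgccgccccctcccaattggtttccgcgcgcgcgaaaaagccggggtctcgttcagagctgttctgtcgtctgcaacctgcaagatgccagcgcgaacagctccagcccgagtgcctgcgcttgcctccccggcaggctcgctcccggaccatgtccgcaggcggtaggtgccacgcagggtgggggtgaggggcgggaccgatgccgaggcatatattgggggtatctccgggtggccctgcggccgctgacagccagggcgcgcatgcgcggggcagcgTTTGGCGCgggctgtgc
Rfc3 promoter, chr5:151651159-151651458, minus strand: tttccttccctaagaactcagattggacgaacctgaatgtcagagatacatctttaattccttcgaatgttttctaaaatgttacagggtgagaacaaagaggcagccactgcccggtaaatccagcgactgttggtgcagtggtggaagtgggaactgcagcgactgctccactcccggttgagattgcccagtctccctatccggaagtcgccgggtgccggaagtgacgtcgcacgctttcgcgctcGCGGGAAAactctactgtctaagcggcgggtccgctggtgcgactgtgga
Mcm5 promoter, chr8:75109259-75109558, plus strand: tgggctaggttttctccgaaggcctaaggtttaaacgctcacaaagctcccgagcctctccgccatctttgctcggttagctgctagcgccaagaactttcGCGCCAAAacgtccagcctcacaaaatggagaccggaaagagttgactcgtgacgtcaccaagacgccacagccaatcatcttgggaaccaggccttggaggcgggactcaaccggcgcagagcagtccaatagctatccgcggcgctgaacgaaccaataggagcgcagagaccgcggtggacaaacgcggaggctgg
Mcm3 promoter, chr1:20820263-20820562, minus strand: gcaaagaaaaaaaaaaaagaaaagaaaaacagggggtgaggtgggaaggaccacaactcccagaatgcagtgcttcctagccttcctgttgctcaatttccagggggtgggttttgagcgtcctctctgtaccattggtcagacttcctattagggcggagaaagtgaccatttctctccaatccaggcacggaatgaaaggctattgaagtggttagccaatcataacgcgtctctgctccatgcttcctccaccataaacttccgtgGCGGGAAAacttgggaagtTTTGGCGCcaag
Counted from 0 at the RefSeq start of the window, the match started at -165 in Mcm7, -62 in Hells, 33 in Dnmt1, 0 in Rfc3 and -149 in Mcm5. Mcm3 held 2 matches, at 19 and 38. Of these 6 genes Mcm3 alone has its outermost annotated start at that RefSeq start, and the windows of Mcm7 and Dnmt1 lie wholly inside the annotated gene. The other 8 genes with a match were Mcm6, Cdca7, Cdt1, Dtl, Msh6, Pola1, Pold3 and Cdc6. No promoter was matched for Atad2, Ccne2, Dscc1, Exo1, Gins1, Gins2, Gmnn, Mcm4, Rfc2 and Tipin.

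Levels were taken over kept cells, which are the barcodes that the authors retained in their normalized files: 1914, 1221 and 2515 in tumors 1, 2 and 3, or 58.8%, 28.2% and 41.7% of the barcodes. Kept cells had median depths of 4282.5, 1594 and 1816 UMIs, and 3, 4 and 1 kept barcodes of tumors 1, 2 and 3 were also present in another tumor. Cells were clustered on 2000 variable genes from which the 49 genes and all other cell cycle lists had been removed, and a cluster was called X-like when at least 3 markers of type X marked it. Of 21 clusters, those named tumor-like were marked by 10 to 16 of 18 sympathetic and neuronal markers, with Th and Hand2 in each, over the 3 tumors pooled. A non-tumor cluster kept its name in a tumor only with at least 3 of its markers within that tumor, which left 90 cells of the plasma cell cluster in tumor 2 and 8 in tumor 3 unnamed. This was not asked of the tumor-like clusters, which had 9 to 15 markers within tumor 1 and 0 to 3 within tumors 2 and 3, set against all other cells of the same tumor. Tumor-like cells numbered 320, 843 and 2083 in tumors 1, 2 and 3, and cells of 11 non-tumor classes numbered from 26 (mesothelial-like) to 946 (macrophage-like). Sums of raw counts were made for each class and tumor with at least 10 cells, which gave 3 tumor-like and 24 non-tumor sums. NK cell-like, mesothelial-like and plasma cell-like cells had a sum in tumor 1 only, and erythroid-like cells in tumors 2 and 3 only. The 237 cells of the unnamed class entered no comparison. Levels are in CPM, that is UMIs of the gene per 1000000 UMIs of the sum. Counts of 3' ends do not scale with transcript length, but other differences in capture between genes were not measured. Orders of different genes by level are therefore orders of counted UMIs.

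The libraries did not behave alike, and this touches every result on non-tumor cells. The 18 tumor markers summed to between 6720 and 7932 CPM in tumor-like cells. In the 10 non-tumor sums of tumor 1 they summed to between 79.8 and 271 CPM, with 1 to 8 of the 18 at 0. In the 14 non-tumor sums of tumors 2 and 3 they summed to between 1748 and 5635 CPM, with at most 4 of the 18 at 0. Expressed as a percent of tumor-like cells of the same tumor, this was 1.01% to 3.42% in tumor 1 and 26.0% to 81.9% in tumors 2 and 3, with no overlap. S phase genes in non-tumor classes are therefore given beside the tumor markers of the same cells, and with and without tumor 1.

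In tumor-like cells the 49 genes summed to 5877 CPM in tumor 1 (95% exact Poisson interval 5683 to 6076), 6365 in tumor 2 (6243 to 6488) and 6313 in tumor 3 (6234 to 6392), a mean of 6185 ± 268 (SD, n = 3). Tumor 1 was the lowest, and its interval did not overlap those of the other 2. These intervals cover counting error only. Every gene was detected in tumor-like cells of every tumor, with means from 26.3 CPM for Cdc6 to 852.5 CPM for Dut and a median of 85.5 CPM. The sum was uneven, in that the 2 highest genes gave 25.1% of it and the 10 highest 51.4%.

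Chromatin genes made up the largest role, at 1678 ± 89.0 CPM or 27.1% of the sum. Nasp, the histone chaperone that guards newly made H3 and H4 (chromosome 4, 116601052 to 116627941), was at 608.5, 751.5 and 734.5 CPM in tumors 1, 2 and 3. Hells, a chromatin remodeler needed for DNA methylation, was at 210, 176 and 176 CPM. Dnmt1, which copies methyl groups to the new strand, was at 211, 182 and 134 CPM. Nasp was lowest in tumor 1, whereas Hells and Dnmt1 were highest there. The other 6 genes of this role, Atad2, Slbp, Uhrf1, Chaf1b, Cdca7 and Chaf1a, had means between 69.7 and 169 CPM.

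Nucleotide supply followed at 1430 ± 64.7 CPM, or 23.1%. Dut, the dUTPase that keeps uracil out of DNA (chromosome 2, 125247190 to 125258608), was the highest of all members at 742, 896 and 919 CPM. Rrm2, the S phase subunit of ribonucleotide reductase, was at 313, 206 and 255 CPM. Dut was lowest and Rrm2 highest in tumor 1, so these genes did not move together between tumors. The other members of this role were Tyms, Rrm1 and Tk1, and Tk1, thymidine kinase of the salvage pathway, was by far the lowest at 27.5 ± 2.31 CPM.

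Helicase genes summed to 1265 ± 32.6 CPM (20.5%). Mcm7, a helicase subunit (chromosome 5, 138164583 to 138172422), led this role at 321, 251 and 296 CPM. Gmnn, which encodes geminin, the inhibitor of CDT1, was at 125, 194 and 198 CPM. The other MCM genes had means from 56.8 CPM for Mcm4 to 132 CPM for Mcm2, while the loading factors Cdt1 and Cdc6 were at 49.9 ± 12.5 and 26.3 ± 8.03 CPM. Cdc45, the GINS genes Gins1 and Gins2, and Dtl, a substrate receptor in the destruction of CDT1, lay between 29.4 and 81.0 CPM. MCM genes thus had more counted UMIs than their loaders, although Mcm4 and Cdt1 differed by less than the spread between tumors.

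Polymerase, clamp and clamp loader genes summed to 1226 ± 119 CPM (19.8%). Rfc4, a subunit of the clamp loader, was at 132, 228 and 235 CPM. Lig1, the ligase that joins Okazaki fragments, was at 155.5, 196 and 176 CPM. Pcna, the sliding clamp, varied most of all 49 genes, with 147, 48.9 and 116 CPM, which is a 3.01-fold range with tumor 2 the lowest. The other clamp loader subunits Rfc2, Rfc3 and Rfc5 had means from 84.5 to 163 CPM. Primase and polymerase genes were lower, with Prim1 at 106 ± 20.4, Pola1 at 45.6 ± 21.2 and Pold3 at 37.9 ± 2.22 CPM. Fen1, the flap nuclease, Rpa2, which coats single strands, and Dscc1, of the alternative clamp loader, were at means of 83.5, 85.5 and 35.4 CPM.

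Fork protection and repair genes summed to 523 ± 86.3 CPM (8.46%), led by Tipin, a fork protection factor, at 122, 177 and 221 CPM. Clspn, Ung, Msh6, Exo1, Rad51ap1 and Wdr76 lay between 30.5 and 86.2 CPM. The cyclin E genes Ccne1 and Ccne2, which drive entry into S phase with CDK2, together gave 62.0 ± 5.95 CPM, the smallest share of any role. Ccne2 was at 38.9, 16.5 and 23.6 CPM and Blm, a helicase of the fork, at 35.5, 37.9 and 24.6 CPM. Across the 49 genes the median coefficient of variation over the 3 tumors was 19.3%, and 6 genes differed by more than 2-fold between tumors. Tumor 1 held the lowest value for 26 genes and the highest for 15.

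**Figure D1:**
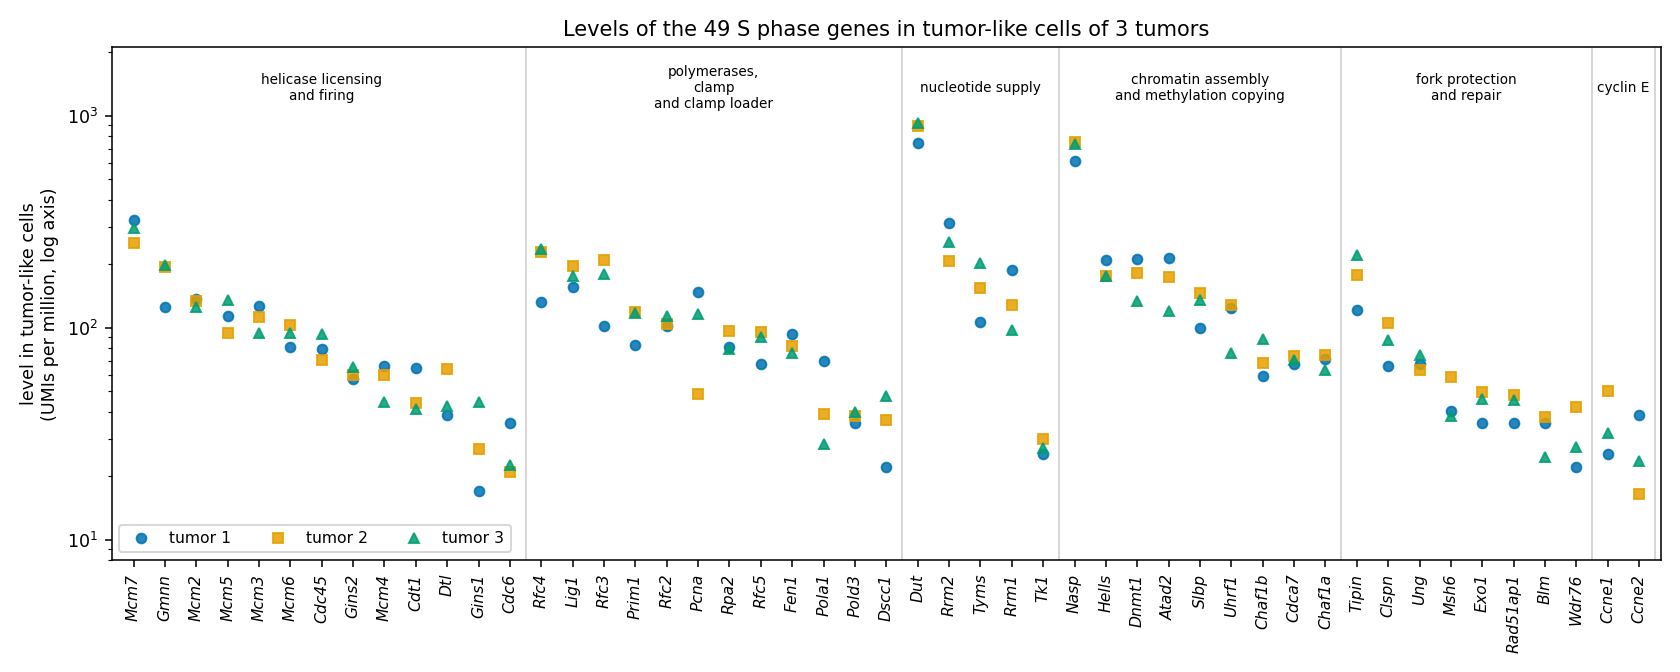
Level of each of the 49 S phase genes in tumor-like cells, in UMIs per 1000000 on a log axis, with 1 point per tumor and the genes grouped by role and ordered by mean. Points of the 3 tumors lie close together for most genes, Dut and Nasp stand above all others in every tumor, and Pcna spreads most, from 48.9 to 147.

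Tumor-like clusters were also compared with each other. Across 17 sums of a tumor-like cluster in a tumor, the S phase genes ranged from 4157 CPM, in cluster 3 of tumor 1 with 69 cells, to 7026 CPM, in cluster 1 of tumor 2 with 229 cells. In tumors 2 and 3 the lowest values, 5559 and 5240 CPM, were in the same cluster 11. The lowest cluster of tumor 1 was also the shallowest, with a median of 586 UMIs per cell. No tumor-like cluster fell to the level of a non-tumor class of tumor 1, of which the highest was at 1975 CPM. In tumors 2 and 3 the gap was smaller. Their highest non-tumor class, B cell-like cells, was at 4674 and 5222 CPM, against 5559 and 5240 CPM in the lowest cluster. Both B cell-like values were above the 4157 CPM of the lowest cluster of tumor 1.

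Whether S phase genes set tumor-like cells apart was tested with edgeR's quasi-likelihood test, tumor-like cells against the unweighted mean of the 11 non-tumor classes, with Benjamini-Hochberg adjustment over 10319 genes. S phase genes were higher in tumor-like cells: 37 of the 47 genes tested passed an adjusted p of 0.05, and none was lower (without adjustment 42 were higher and 0 lower, and DESeq2 also called 0 lower). Of all 10319 genes, 14.6% were called higher and 1.99% lower, and without adjustment 2621 genes were higher and 428 lower. The median log2 fold change was 1.69 over the 47 genes and 0.22 over all genes. Blm and Ccne2 were too low to be tested.

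By role, all 7 tested fork protection and repair genes were called higher, as were 8 of 9 chromatin genes, 11 of 13 helicase genes and 9 of 12 polymerase, clamp and clamp loader genes. Only 2 of 5 nucleotide supply genes (Rrm1 and Rrm2) and neither cyclin E gene were called. The 5 called genes with the largest fold change were Chaf1a, Exo1, Cdc6, Rad51ap1 and Uhrf1.

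Chaf1a, the large subunit of the CAF-1 histone chaperone (chromosome 17, 56040439 to 56072289), was at 71.0, 74.5 and 63.4 CPM in tumor-like cells. In non-tumor classes it reached at most 12.8 CPM in tumor 1, 52.0 in tumor 2 and 74.2 in tumor 3, so the groups did not overlap in tumors 1 and 2 but did in tumor 3. Its log2 fold change was 3.99 ± 0.84 (SE, edgeR adjusted p = 0.0069). Exo1, an exonuclease of mismatch repair, was at 35.5, 49.5 and 46.2 CPM in tumor-like cells and at most at 6.41, 31.4 and 56.1 CPM elsewhere, with a log2 fold change of 3.99 ± 0.95 (edgeR adjusted p = 0.011).

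Cdc6, the licensing factor, was at 35.5, 20.8 and 22.6 CPM in tumor-like cells and at most at 10.7, 42.1 and 22.4 CPM elsewhere. Its log2 fold change was 3.11 ± 0.65 (edgeR adjusted p = 0.0069), although a non-tumor class exceeded tumor-like cells in tumor 2. Rad51ap1, which acts in DNA repair, was at 35.5, 48.3 and 45.7 CPM and at most at 14.9, 28.8 and 67.3 CPM elsewhere (log2 fold change 3.11 ± 0.72, edgeR adjusted p = 0.010). Uhrf1, which brings DNMT1 to newly copied DNA (chromosome 17, 56303321 to 56323486), was at 123, 128 and 76.4 CPM and at most at 36.3, 102 and 89.8 CPM elsewhere (log2 fold change 3.08 ± 0.60, edgeR adjusted p = 0.0069).

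These 5 genes had no UMI in 1 to 3 of the 11 non-tumor classes, so their fitted fold changes depend on the prior count of the fit. As ratios of mean levels, tumor-like cells exceeded the mean of the non-tumor classes by 4.76-fold for Chaf1a, 4.74-fold for Exo1, 4.86-fold for Cdc6, 3.98-fold for Rad51ap1 and 4.79-fold for Uhrf1.

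Genes that were not called included the most abundant one. Dut averaged 852.5 CPM in tumor-like cells and 298 CPM over the non-tumor classes, a 2.86-fold ratio with a log2 fold change of 1.69 ± 0.63 (adjusted p = 0.068, edgeR). The others tested and not called were Slbp, Rfc2, Tk1, Pold3, Mcm4, Cdt1, Tyms, Dscc1 and Ccne1, with log2 fold changes from 0.53 for Slbp, the histone mRNA binding protein, to 2.41 for Ccne1. All 47 fold changes were above 0.

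The size of the difference rested on tumor 1. The ratio of the tumor-like level to the mean of the non-tumor sums of the same tumor had a median over the 49 genes of 5.42 in tumor 1 (range 1.59 to 19.1), 1.81 in tumor 2 (1.06 to 4.74) and 1.75 in tumor 3 (0.978 to 4.27). It was above 1 for 49, 49 and 48 genes, the exception being Cdt1 in tumor 3. Without tumor 1 the filter left 29 of the 49 genes for the test and 11 of them were called higher, without tumor 2 it was 33 of 49, and without tumor 3 it was 25 of 49. Of all genes, 246 of 4302 were called higher and 65 lower without tumor 1. It was 1590 of 12158 and 23 without tumor 2, and 1018 of 11581 and 54 without tumor 3. Tumor markers in non-tumor cells moved with these ratios, as given above, and their part in the result was not tested. When non-tumor cells were limited to those at or under the median tumor marker share of their class and tumor, 45 of 46 genes tested were called higher, where of all genes 2666 of 9201 were called higher and 861 lower.

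Scaling mattered as well. DESeq2, which gave all genes a median log2 fold change of -0.54, called 4 of the 47 genes higher (Chaf1a, Dnmt1, Hells and Uhrf1), where over all genes it called 174 higher and 1980 lower, against 1511 and 205 with edgeR. Without TMM factors the median of all genes was 0.66 and 45 of 47 were called higher, as were 3013 of all 10319 genes, with 210 lower. Relative to that shift the S phase genes stood at 1.47 with edgeR, 1.70 with DESeq2 and 1.37 without TMM.

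**Figure D2:**
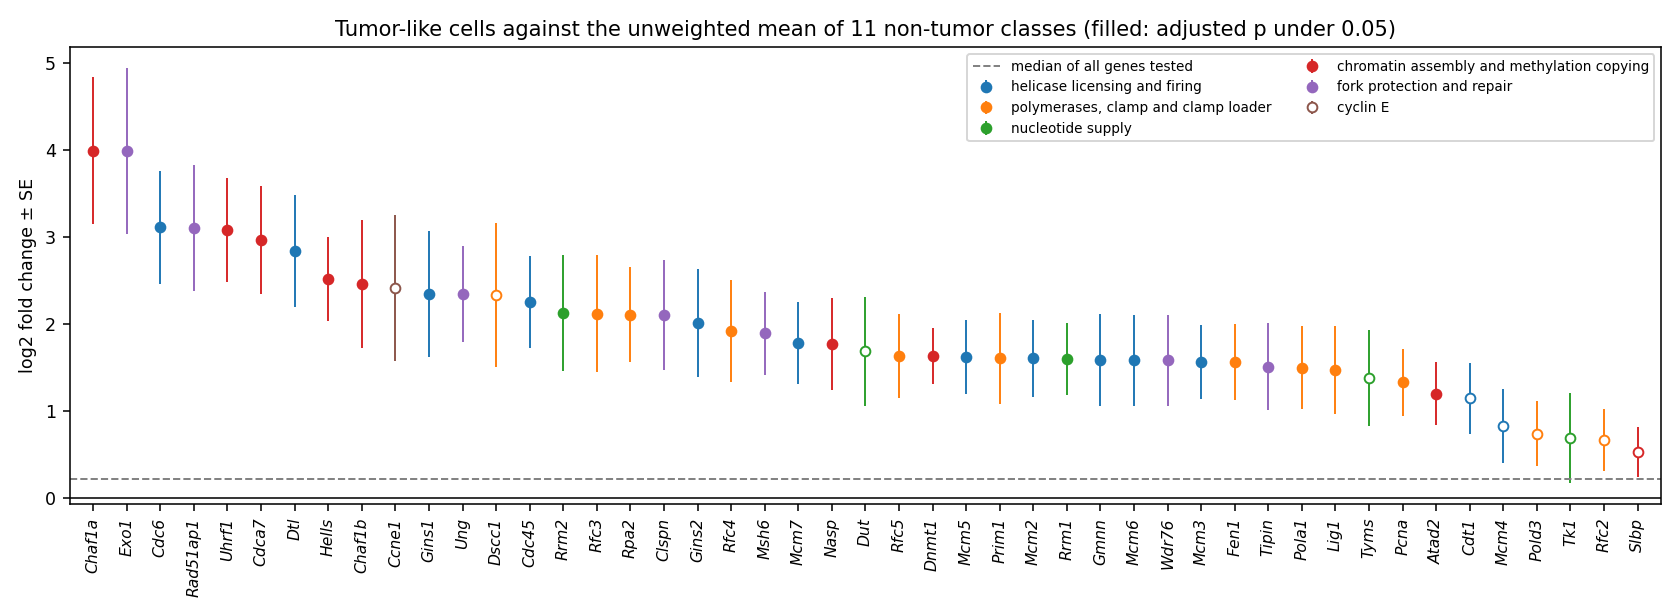
Log2 fold change and its standard error of the 47 tested S phase genes, tumor-like cells against the unweighted mean of 11 non-tumor classes, ordered by size and colored by role. Filled points passed an adjusted p of 0.05 (37 genes), open points did not (10 genes), and the dashed line is the median of all 10319 genes at 0.22.

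Other cell cycle lists were counted in the same test for comparison. Higher in tumor-like cells were 39 of 48 tested genes of G2 and mitosis, for example Psrc1, Kif2c, Dlgap5 and Plk1, which act in spindle assembly and division (log2 fold changes of 3.73, 3.61, 3.31 and 3.21). Among other replication genes 19 of 40 were higher, for example Ticrr, Dna2, Shmt1 and Cdc7 (3.79, 3.24, 3.16 and 2.97). Dna2 was not higher than in every class, since in tumor 1 it was at 22.0 CPM in tumor-like and 37.3 CPM in macrophage-like cells. Of replication-dependent histones 6 of 20 were higher, led by Hist1h2ak at 2.53, and of regulators of cell cycle entry 9 of 26, led by Mybl2 and Ccnd1 (2.89 and 2.61). None of the genes in these 4 lists was called lower.

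Which non-tumor classes carried S phase transcripts was clearest in tumor 1, where tumor markers were low. In its 10 non-tumor sums the 49 genes stood at 5.94% to 33.6% of their level in tumor-like cells, and the share of the tumor markers was exceeded 2.61-fold to 20.2-fold. In tumors 2 and 3 the S phase share was 33.2% to 82.7% and the ratio to the tumor marker share 0.896 to 1.61. The difference (S phase share minus marker share) was -6.88 to 21.3 percentage points in those tumors.

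**Figure D3:**
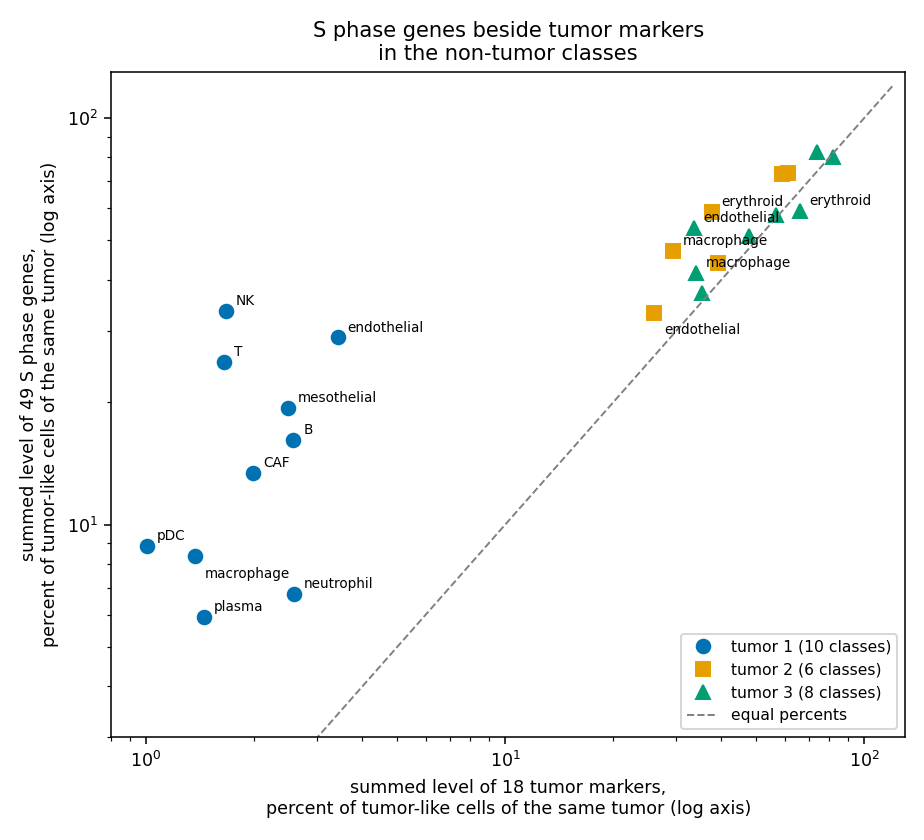
Summed level of the 49 S phase genes against that of 18 tumor markers in each non-tumor class, both as a percent of tumor-like cells of the same tumor and on log axes, with 1 point per class and tumor. Classes of tumors 2 and 3 lie along the line of equal percents (ratio 0.896 to 1.61), while those of tumor 1 lie above it (ratio 2.61 to 20.2).

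Within tumor 1 the order of the classes was as follows. NK cell-like cells came first at 1975 CPM (95% exact Poisson interval 1772 to 2195) or 33.6% of tumor-like cells, beside 1.66% of the tumor markers, from 32 cells. Endothelial-like cells came next at 1698 CPM (1582 to 1820) or 28.9%, beside 3.42% of the markers, from 44 cells, and their interval overlapped that of the NK cell-like cells. T cell-like cells followed at 1480 CPM (1395 to 1569) or 25.2%, beside 1.65%, from 114 cells. In these sums the 3 classes stood above all others of tumor 1. Their order changed with the cells and counts used. With cells low in tumor markers it was T cell-like (33.7%), endothelial-like (30.2%) and NK cell-like (28.6%). With corrected counts it was NK cell-like (30.2%), endothelial-like (29.6%) and T cell-like (25.9%), with mesothelial-like cells at 25.2%. Cells of tumor 1 were also thinned to an equal depth, as described below, in a random draw. Mean S phase UMIs per cell were then 1.47 in both NK cell-like and endothelial-like cells. They were 0.9375 in mesothelial-like, 0.92 in B cell-like and 0.894 in T cell-like cells. By that mean, T cell-like cells did not stand above B cell-like and mesothelial-like cells.

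Mesothelial-like cells were at 1139 CPM (19.4%), B cell-like cells at 951 CPM (16.2%) and CAF-like cells, fibroblasts of the tumor, at 788 CPM (13.4%), each apart from its neighbors by more than counting error. Plasmacytoid dendritic-like and macrophage-like cells were at 520.0 and 492 CPM (8.85% and 8.37%), with overlapping intervals. Neutrophil-like and plasma cell-like cells were lowest at 396 and 349 CPM (6.74% and 5.94%), again overlapping. Neutrophil-like cells had the smallest ratio to the tumor markers, at 2.61. All of these are counts of 1 tumor, so the order has no replicate.

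The G2 and mitosis genes gave a partly different order. They were at 38.4% of tumor-like cells in T cell-like, 29.4% in endothelial-like, 12.6% in CAF-like and 12.5% in NK cell-like cells, and at 2.10% to 8.74% in the other 6 classes. With corrected counts these shares were 27.1% in endothelial-like, 26.9% in T cell-like, 22.5% in CAF-like, 12.5% in plasma cell-like and 10.3% in NK cell-like cells. With cells low in tumor markers they were 62.7% in T cell-like, 48.3% in endothelial-like, 15.6% in CAF-like and 6.81% in NK cell-like cells. T cell-like and endothelial-like cells of tumor 1 thus carried both the S phase and the G2 and mitosis transcripts, whereas NK cell-like cells carried the former at 33.6% and the latter at 12.5%.

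**Figure D4:**
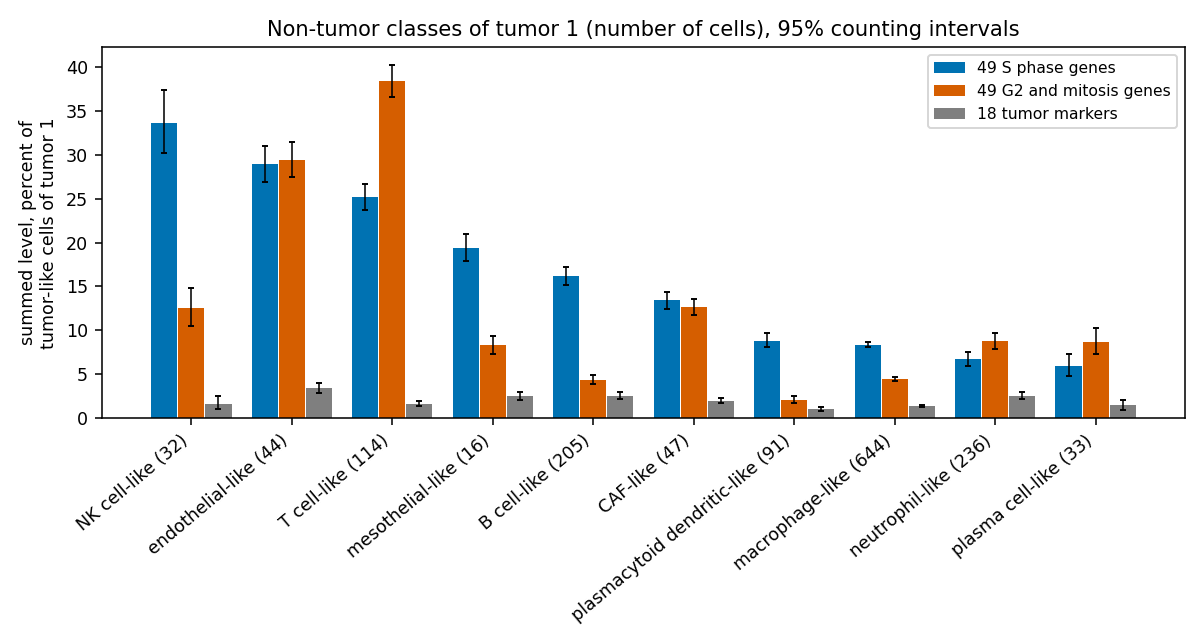
Summed levels of 49 S phase genes, 49 G2 and mitosis genes and 18 tumor markers in the 10 non-tumor classes of tumor 1, as a percent of tumor-like cells of the same tumor, with 95% counting intervals. NK cell-like, endothelial-like and T cell-like cells are highest for S phase genes at 33.6%, 28.9% and 25.2%, and tumor markers are at or below 3.42% in every class.

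Gene by gene, the highest of the 10 non-tumor classes of tumor 1 was NK cell-like for 20 genes, endothelial-like for 17, mesothelial-like for 5, B cell-like and T cell-like for 3 each and plasma cell-like for 1. All 49 genes were detected in the endothelial-like, T cell-like, B cell-like, CAF-like and macrophage-like cells of tumor 1. In NK cell-like cells 6 genes were at 0, where 3 UMIs would be 17.2 CPM, and in plasma cell-like cells 13 were, where 3 UMIs would be 11.9 CPM. The median gene stood at 38.0% of its tumor-like level in NK cell-like, 30.1% in endothelial-like and 24.8% in T cell-like cells, and at 5.08% to 17.1% in the other 7 classes.

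A few genes reached the tumor-like level outside tumor-like cells of tumor 1. Tk1 was at 64.1 CPM in endothelial-like cells (30 UMIs, interval 43.2 to 91.5) and at 25.4 CPM in tumor-like cells (15 UMIs, interval 14.2 to 41.8), so the intervals did not overlap. In tumors 2 and 3, however, endothelial-like cells had 1 and 3 UMIs of Tk1, at 9.60 and 24.5 CPM, below the 29.9 and 27.1 CPM of tumor-like cells. Slbp, which binds the stem-loop of histone mRNA, was at 132 CPM in NK cell-like and 99.7 CPM in tumor-like cells, and Rfc2, a clamp loader subunit, at 103 and 101 CPM, with overlapping intervals for both. These 3 genes were among those not called in the test of tumor-like cells.

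The abundant genes of the tumor-like cells did not lead everywhere. In endothelial-like cells of tumor 1 the highest gene was Atad2, a chromatin ATPase (chromosome 15, 58094044 to 58135082), at 126 CPM, followed by Dnmt1 at 83.3 CPM, Lig1 and Tyms at 79.0 CPM each, Nasp at 72.6 CPM and Dut at 70.5 CPM. In T cell-like cells it was Dut at 107 CPM, followed by Nasp and Slbp at 88.5 CPM each. Slbp was the highest of the 49 genes in 4 classes of tumor 1: macrophage-like cells (54.4 CPM), neutrophil-like cells (58.0 CPM), plasmacytoid dendritic-like cells (45.9 CPM) and B cell-like cells (78.3 CPM).

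Endothelial-like cells had a sum in every tumor. Their S phase share was 28.9%, 33.2% and 53.8% of tumor-like cells in tumors 1, 2 and 3 (38.6% ± 13.3, SD, n = 3), beside tumor marker shares of 3.42%, 26.0% and 33.6% and G2 and mitosis shares of 29.4%, 25.6% and 46.5%. The S phase share was above the marker share in 3 of 3 tumors, by 25.5, 7.19 and 20.2 percentage points. No test was run on this, since with 3 tumors the smallest two-sided p of an exact sign-flip test is 0.25.

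Macrophage-like cells were at 8.37%, 47.1% and 41.6%, beside markers of 1.37%, 29.4% and 34.1%. They include a subcluster of 37, 45 and 76 cells with S phase genes at 1354, 5153 and 5246 CPM and tumor markers at 649, 4795 and 5476 CPM, whose 10 leading genes held 4 tumor markers (Stmn2, Chgb, Tubb3 and Nefl) and no macrophage marker. T cell-like cells were at 25.2%, 72.8% and 80.4%, beside markers of 1.65%, 58.9% and 81.9%. Neutrophil-like cells were at 6.74%, 43.9% and 57.8%, beside markers of 2.59%, 39.3% and 56.6%. In the T cell-like cells of tumor 3 the markers exceeded the S phase genes, and in neutrophil-like cells both shares differed by at most 4.64 percentage points.

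To ask which non-tumor class stood above the rest, every class was compared with the average of the remaining ones by edgeR's quasi-likelihood test over the same 10319 genes. Of the 47 genes tested in 11 classes, 1 was called: Uhrf1 was higher in endothelial-like cells, where 10.5% of all genes were called higher and 0.126% lower. Uhrf1 was at 36.3, 57.6 and 89.7 CPM in endothelial-like cells of tumors 1, 2 and 3, from 17, 6 and 11 UMIs. In tumor 1 this was the highest of the non-tumor classes, while T cell-like cells stood at 102 CPM in tumor 2 and at the same level as endothelial-like cells, 89.8 CPM, in tumor 3. Its log2 fold change was 2.53 ± 0.79 (SE, adjusted p = 0.040, edgeR).

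The call on Uhrf1 was lost without any 1 tumor (log2 fold changes of 2.30, 2.77 and 2.40 without tumors 1, 2 and 3, adjusted p of 0.062, 0.091 and 0.261, edgeR). It was also lost with DESeq2 (2.004, adjusted p = 0.094), with sums of at least 20 cells (1.90, edgeR adjusted p = 0.109) and with the authors' corrected counts (2.60, edgeR adjusted p = 0.280). It held with each tumor as a block (log2 fold change 2.27 ± 0.67, adjusted p = 0.017, edgeR). With that block 4 more genes were called, namely Rad51ap1 in endothelial-like cells (2.51 ± 0.87, edgeR adjusted p = 0.049), Hells and Uhrf1 in T cell-like cells (1.77 ± 0.50 and 2.30 ± 0.68, adjusted p = 0.040 and 0.0498), and Dut in mesothelial-like cells (1.69 ± 0.54, adjusted p = 0.038). Of all 10319 genes, the block called 1414 higher and 37 lower in endothelial-like cells, and 366 higher and 29 lower in T cell-like cells.

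In T cell-like cells all 47 fold changes of the S phase genes were above 0 without the block, with a median of 1.06 on the log2 scale against 0.31 for all genes, and 15 passed an unadjusted p of 0.05 (8.9% of all genes did). None passed the adjusted threshold in the main edgeR fit, which called 1.53% of all genes higher and 0.0194% lower. DESeq2 called none (5 were higher unadjusted, as were 304 of all 10319 genes). Without the filter on low counts edgeR called 5 of 49 higher, namely Ccne1, Hells, Rad51ap1, Rfc4 and Uhrf1. There 562 of all 19604 genes were called higher and 26 lower. With cells low in tumor markers it called 1 of 46, Hells, where 131 of all 9201 genes were called higher and 24 lower. Without tumor 1, 23 of 29 fold changes of the S phase genes were above 0 with a median of 0.53 against 0.21 for all genes. Of the other lists 1 of 40 other replication genes, 1 of 48 G2 and mitosis genes and none of 20 histones and 26 entry regulators were called higher. Timeless, a partner of Tipin at the fork, and Aurkb, a kinase of chromosome segregation, had log2 fold changes of 2.66 ± 0.66 and 3.07 ± 0.74 (adjusted p = 0.036 and 0.028, edgeR).

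In the other 9 classes no S phase gene was called by edgeR or DESeq2 with the filter on low counts and without the block. With the block Dut was called in mesothelial-like cells, as given above, and without the filter Gins1 was called in erythroid-like, Exo1 in macrophage-like and Chaf1a in neutrophil-like cells. At an unadjusted p under 0.05 with edgeR, 5 were higher in erythroid-like, 3 in B cell-like, 2 in macrophage-like and 1 each in mesothelial-like and neutrophil-like cells. Of all 10319 genes, 270, 850, 1961, 1571 and 2209 were higher in these classes, in that order. Lower were 2 in plasma cell-like and 1 each in B cell-like and mesothelial-like cells, where of all genes 185, 139 and 52 were. DESeq2 gave 7 S phase genes higher in erythroid-like, 1 each in B cell-like and neutrophil-like cells and none in the other 6 classes. Of all genes, it gave 316, 407 and 1932 higher in the classes named. It gave 3 S phase genes lower in plasmacytoid dendritic-like, 2 each in mesothelial-like and plasma cell-like cells and 1 in B cell-like cells, where of all genes 224, 136, 99 and 329 were lower.

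The background of these 9 comparisons differed widely. Of all genes, edgeR called 14.5% higher and 0.737% lower in neutrophil-like, 13.1% and 0.165% in CAF-like, and 9.85% and 0.0581% in macrophage-like cells. The shares were 8.82% and 0.0291% in mesothelial-like, 4.21% and 0.0485% in plasmacytoid dendritic-like, and 2.4% and 0.0291% in plasma cell-like cells. They were 2.02% and 0.0485% in B cell-like, 1.51% and 0.0% in NK cell-like, and 0.145% and 0.0872% in erythroid-like cells. The absence of S phase calls thus came with many other calls in the first 4 of these classes and with few in the last 3.

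Medians of the 47 log2 fold changes were 0.82 in erythroid-like, 0.70 in B cell-like, 0.56 in macrophage-like, 0.49 in NK cell-like and 0.46 in neutrophil-like cells. They were -0.16 in both CAF-like and mesothelial-like, -0.52 in plasmacytoid dendritic-like and -1.73 in plasma cell-like cells. Over all genes the medians ranged from -1.89 in erythroid-like, which had sums in tumors 2 and 3 only, to 0.55 in macrophage-like cells. Plasma cell-like cells had 6 of 47 fold changes above 0, but they had a sum in tumor 1 only, as did NK cell-like and mesothelial-like cells. Most other classes also had sums of tumors 2 and 3, where S phase shares were 33.2% to 82.7%, against 5.94% to 33.6% in tumor 1. Within tumor 1, plasma cell-like and neutrophil-like cells were at 349 and 396 CPM with overlapping intervals. These medians are therefore no ranking of the classes. Neutrophil-like cells, where 14.5% of all genes were called higher, were higher for 3 of 40 other replication genes, 2 of 48 G2 and mitosis genes, 2 of 20 histones and 5 of 26 entry regulators, led by the arrest gene Cdkn1a, the nucleoside kinase Dck, the nuclease and helicase Dna2 and the transcription factor E2f2, with log2 fold changes of 5.25, 4.83, 3.60 and 3.17.

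Macrophage-like cells were clustered again, and subclusters were assigned to 3 subsets by their markers. Subclusters of 158, 123 and 45 cells stayed unnamed and entered no subset. The largest of them is the one led by tumor markers given above. A further subcluster was left out in tumors 1 and 3, with 16 and 9 cells. The S phase genes were at 530 CPM in tumor 1, 1386 in tumor 2 and 1588 in tumor 3 in C1q macrophage-like cells. They were at 356, 2846 and 1910.3 CPM in Ccr2+ monocyte-like cells and at 545, 3695 and 2079 CPM in patrolling monocyte-like cells. The value of 3695 joins a subcluster of 15 cells at 2227 CPM with one of 12 cells at 5054 CPM, which held this name in tumor 2 only. Tumor markers moved with them, at 103, 954 and 1416 CPM, 60.4, 1412 and 1507 CPM, and 94.3, 1633 and 2261 CPM. Only 7 of the 49 genes passed the filter among 2552 genes, and none was called in any subset by edgeR or DESeq2, with none at an unadjusted p under 0.05 by either. Of all genes, 6.74%, 0.196% and 2.94% were called higher and 2.04%, 0.235% and 1.88% lower in the 3 subsets.

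Whether S phase transcripts lay in some cells of a class or were spread over all of them was examined cell by cell, after each cell had been thinned to 1000 UMIs. A cell with at least 3 different S phase genes was counted. In tumor-like cells this was 81.3% in tumor 1 (126 of 155 cells, 95% exact binomial interval 74.2 to 87.1), 91.7% in tumor 2 (773 of 843) and 92.1% in tumor 3 (1919 of 2083), a mean of 88.4% ± 6.14 (SD, n = 3). In tumor 1, 165 of 320 tumor-like cells were too shallow and were left out. Without thinning the shares were 74.7%, 98.3% and 99.4%, at median depths of 967.5, 1535 and 1819 UMIs. In tumors 2 and 3 the thinned share was also 45.5% to 84.6% in the non-tumor classes. The tumor-like share there was therefore not read as the share of cells in S phase.

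In the non-tumor classes of tumor 1 the share was 18.8% in NK cell-like (6 of 32 cells, interval 7.21 to 36.4), 13.9% in endothelial-like (5 of 36, 4.67 to 29.5) and 11.5% in T cell-like cells (13 of 113, 6.27 to 18.9). It was 6.52% in CAF-like, 5.5% in B cell-like and 4.76% in plasma cell-like cells. It was 2.22% in plasmacytoid dendritic-like, 1.99% in macrophage-like (12 of 604, 1.03 to 3.44) and 0.901% in neutrophil-like cells (2 of 222, 0.109 to 3.22). No mesothelial-like cell of 16 reached it, for which 3 cells would be 18.8%. Without thinning the shares of these 10 classes ran from 6.78% in neutrophil-like cells, at a median of 2608 UMIs, to 93.8% in mesothelial-like cells, at a median of 36576.5 UMIs. In tumors 2 and 3 between 45.5% and 84.6% of the cells of every class did, among them 52.7% and 68.2% of neutrophil-like cells. Finer clustering split off 44, 19 and 3 neutrophil-like cells of tumors 1, 2 and 3, led by the granule genes Ngp, Camp and Ltf. How mature the class is was not tested. Tumor markers were at 26.0% or more of the tumor-like level in all non-tumor classes of tumors 2 and 3. The share there was therefore not read as S phase cells in any non-tumor class.

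Thinning is a random draw, so 20 further draws were made. Their mean share in tumor 1 was 15.6% in endothelial-like, 12.3% in NK cell-like, 11.6% in mesothelial-like and 8.19% in T cell-like cells, 7.39% in CAF-like, 5.55% in B cell-like and 5.0% in plasma cell-like cells, and at most 2.0% in the other 3 classes. Values moved between draws, from 0% to 25% in mesothelial-like, 8.33% to 22.2% in endothelial-like, 6.25% to 18.8% in NK cell-like, 1.77% to 11.5% in T cell-like and 2.17% to 10.9% in CAF-like cells.

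The spread between cells was measured as the variance of S phase UMIs per cell divided by their mean, for which counting error alone gives about 1. In tumor 1 its mean over the 20 draws was 3.30 in endothelial-like, 2.76 in NK cell-like, 2.51 in plasma cell-like and 2.38 in T cell-like cells, 2.22 in tumor-like, 1.98 in CAF-like and 1.95 in mesothelial-like cells, and 0.985 to 1.24 in plasmacytoid dendritic-like, neutrophil-like, B cell-like and macrophage-like cells. In tumors 2 and 3 it was 1.84 and 1.99 in endothelial-like and 1.85 and 1.85 in macrophage-like cells, 1.18 and 1.14 in tumor-like, 0.96 and 1.14 in T cell-like, 1.03 and 1.31 in neutrophil-like and 0.994 and 1.12 in B cell-like cells. In endothelial-like, macrophage-like and tumor-like cells the value was above 1 in every one of the 20 draws in 3 of 3 tumors. In CAF-like cells it was so in tumors 1 and 3, where they had a sum. The value was highest in tumor 1 for endothelial-like and tumor-like cells and in tumors 2 and 3 for macrophage-like cells. Macrophage-like cells include the subcluster led by tumor markers given above, with 45 of their 110 cells in tumor 2 and 76 of 192 in tumor 3. Tumor markers spread as well. In the draw used for the shares their value in tumors 1, 2 and 3 was 1.71, 2.39 and 2.47 in endothelial-like cells, where the S phase genes were at 5.84, 1.77 and 2.19, and 1.55, 1.85 and 2.17 in macrophage-like cells, where the S phase genes were at 1.19, 1.68 and 1.82. Of these 6 sums, the S phase value exceeded that of the tumor markers in endothelial-like cells of tumor 1 only, where 5.84 is also above the 2.43 to 5.24 of the 20 draws. No test was made of these values.

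**Figure D5:**
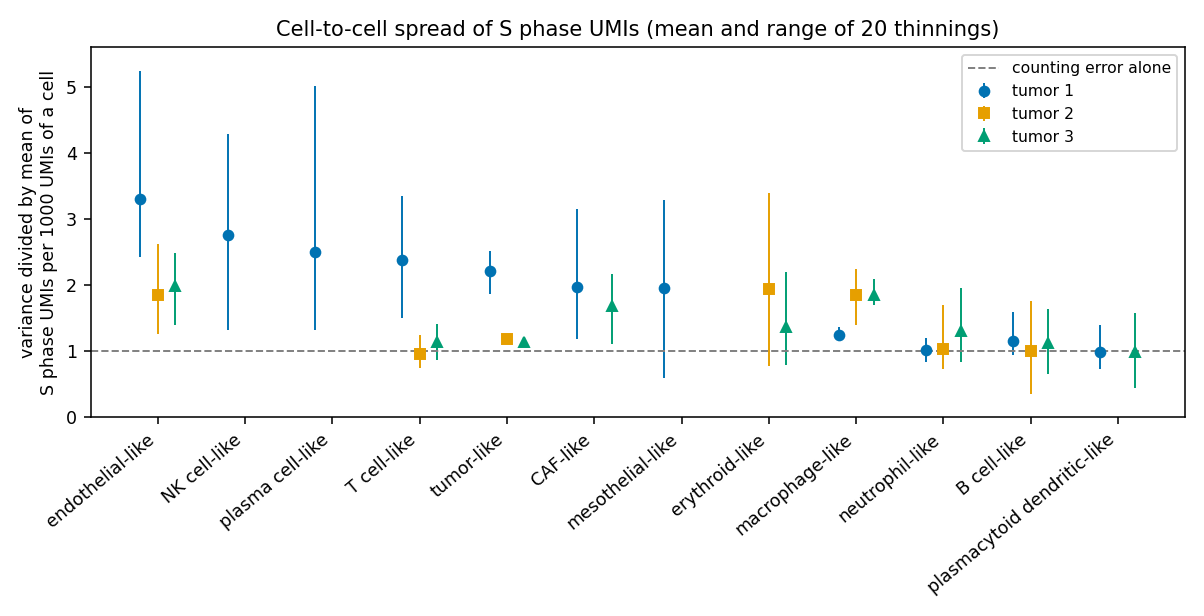
Variance divided by mean of S phase UMIs per cell, with each cell thinned to 1000 UMIs, for each class and tumor with at least 10 cells. Points are means and lines the range of 20 thinnings, and the dashed line marks the value that counting error alone gives. Endothelial-like cells lie above the line in all 3 tumors (3.30, 1.84 and 1.99), whereas T cell-like cells do in tumor 1 (2.38) and lie at 0.96 and 1.14 in tumors 2 and 3.

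G2 and mitosis transcripts, which did not choose the cells with at least 3 S phase genes, were counted in them in tumor 1, in the draw used for the shares. In that draw the T cell-like share of 11.5% was the highest of the range given above. Per 1000 UMIs, T cell-like cells past that count had 4.23 G2 and mitosis UMIs and other T cell-like cells 0.4, at 0.231 and 0.18 tumor marker UMIs. Endothelial-like cells past it had 4.6 against 0.29, at 0 and 0.226 tumor marker UMIs. Macrophage-like cells past it had 2.33 against 0.289, but tumor marker UMIs were higher in them too, at 0.833 against 0.11. NK cell-like cells had 1.33 against 0.423, and the 2 neutrophil-like cells past it had 0 against 0.623, as the 2 plasmacytoid dendritic-like cells had 0 against 0.261.

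Within tumor-like cells the question was whether S phase genes differ between cells rich in G2 and mitosis transcripts (at least 3 of these UMIs per 1000) and cells with none. Rich cells numbered 118, 780 and 1957 in tumors 1, 2 and 3, with S phase genes at 7129, 6452 and 6352 CPM. Cells with none reached 10 only in tumor 1, where 10 cells stood at 2036.5 CPM. The spread of that lone sum, which has no replicate, was taken to equal that of the 3 rich sums, so neither the calls nor their absence are read as a result. Over 9341 genes, edgeR called 0 of 49 S phase genes, where 0.0% of all genes were called higher and 0.0107% lower. Without adjustment, 34 of the 49 passed 0.05 upward, as did 7.17% of all genes. The fits with DESeq2 and without the filter on low counts rest on the same lone sum, so their calls are not given.

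With cells thinned to 500 UMIs, all 3 tumors had cells with none, and S phase genes were at 3669, 5509 and 6036 CPM in those cells and at 7070, 6694 and 6395 CPM in rich cells. The rich cells were higher in 3 of 3 tumors, with the gap largest in tumor 1. None of 40 genes tested was called by edgeR (5 at an unadjusted p under 0.05), and 1, Atad2, was called with the tumor as a block (log2 fold change 0.91 ± 0.24, adjusted p = 0.042). The cells were also divided at their tumor's median of G2 and mitosis UMIs, a choice made after seeing the data. The levels were 5328, 6126 and 6242 CPM at or under it and 6957, 6668 and 6411 CPM above, and edgeR called none of 49 (1 at an unadjusted p under 0.05).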

How the data were processed

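Whole tumors of 3 mice were profiled with the 10x Genomics 3' v3.1 kit. The authors deposited raw UMI counts per gene and barcode, for which the submitters' processing notes name Cell Ranger 3.1.0 and mm10. The authors also deposited normalized values, the natural log of 1 plus a count corrected for ambient RNA, after doublets and barcodes outside per-tumor limits were removed; Seurat 3 and 3.1.5 are named in the same notes. The normalized files set the kept cells and served 1 alternative. All other values came from raw counts.

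Cells were integrated and clustered with Seurat 5.3.0 in R 4.3.3 (2000 variable genes, 30 dimensions, 20 neighbors, resolution 1), without the S phase genes and other cell cycle genes. A marker counted for a cluster at 2-fold or more in at least 10% of cells, and at least 3 gave a name; perivascular markers were also among the leading genes of the CAF-like cluster. Counts were summed per class and tumor (at least 10 cells) and tested with edgeR 4.0.16 (TMM, filterByExpr, quasi-likelihood, Benjamini-Hochberg over all genes, 0.05), with DESeq2 1.42.0 as an alternative. The scripts were tested on simulated counts. Intervals and floors (3 counts) cover counting error only. Promoters and coordinates are of GRCm38.p6.

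Kept cells held 12628163, 2740537 and 5215401 UMIs in tumors 1, 2 and 3. Classes of the same tumor come from the same animal, so samples are paired by animal. Deviations from class means correlated at a median r of 0.25 within a tumor (45 pairs, 0.0092 to 0.63) and -0.19 between tumors (90 pairs). Shares used cells thinned to 1000 UMIs with exact Clopper-Pearson intervals.

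The S phase genes and lists were chosen with earlier results of these data known. Genes given with per-tumor values were the 10 highest in tumor-like cells, up to 5 called genes with the largest fold change per comparison and direction, and those not tested; other genes named singly (Pcna, Tk1, Slbp, Rfc2, Atad2 and the leading genes of each class) were chosen after their values were seen. Human samples and stained sections were not analysed here, and results for 2 genes are not reported here.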

Additional observations from a re-analysis of the deposited data

Results flagged for a closer look

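Barcodes that the authors left out of the normalized files entered no comparison, yet held S phase transcripts. Over 1343, 3106 and 3523 such barcodes of tumors 1, 2 and 3, the 49 genes summed to 1660 CPM, 4276 CPM and 4157 CPM, against 968, 5130 and 5510 CPM over all kept cells. Tumor markers summed to 642, 7010 and 5270 CPM in the barcodes left out and to 507, 5113 and 5894 CPM in kept cells, so the S phase genes were above the kept level in tumor 1 only. Mitochondrial transcripts were at a median of 27.9%, 35.0% and 37.7% of UMIs in these barcodes. In tumor 1 only 557 of the 1343 barcodes were deep enough to be thinned to 1000 UMIs, and 11.7% of these 557 held at least 3 different S phase genes. In tumors 2 and 3 all were deep enough, and 70.6% and 70.8% did. The variance of S phase UMIs divided by the mean was 2.004, 1.42 and 1.37 in the thinned barcodes of tumors 1, 2 and 3. There were no control samples to set these values against.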

How the results depend on the processing

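S phase genes higher in tumor-like cells numbered 37 of 47. DESeq2 gave 4, and leaving out 1 tumor gave 11 to 33 (11 of 29 tested without tumor 1, 25 of 49 without tumor 3). Other settings gave 27 (corrected counts) to 47 (sums of at least 20 cells), and every tested fold change stayed above 0 in each of these. Of all genes, 869 of 6925 were called higher with corrected counts and 2816 of 11404 with sums of at least 20 cells. Calls over the 11 non-tumor classes numbered 1. They were 0 with DESeq2, without any 1 tumor and with at least 20 cells. They were 2 without TMM, 3 with cells low in tumor markers, 5 with the replicate block and 10 without the filter on low counts. Of all genes in endothelial-like cells, 1625 of 10319 were called higher without TMM, 1004 of 9201 with cells low in tumor markers and 1514 of 19604 without the filter. In T cell-like cells 254, 131 and 562 were. Cells rich in G2 and mitosis transcripts were set against 1 sum without a replicate, so calls of that split under other settings are not given. When thinned to 500 UMIs with the replicate block, 1 gene was called (Atad2). The replicate block and the fit without tumor 1 were not run on the main split, for which only tumor 1 had cells with none. The block gave 40 instead of 37 in the first comparison (1824 instead of 1511 of all 10319 genes) and 0 as before in the macrophage subsets. The cause of these changes was not tested.

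The mean share of tumor-like cells with at least 3 S phase genes (88.4%) was 55.1% and 96.4% when thinned to 500 and 2000 UMIs, and 95.2% and 63.2% for at least 2 and 5 genes. In tumor 1, 500 UMIs gave 6.25% in NK cell-like, 3.51% in T cell-like, 0.976% in B cell-like and 0.466% in macrophage-like cells, and 0 in neutrophil-like, plasma cell-like and plasmacytoid dendritic-like cells. With 2000 UMIs it was 40% in endothelial-like, 39.3% in NK cell-like, 31.25% in mesothelial-like, 25.5% in T cell-like, 19.2% in B cell-like, 13.6% in plasmacytoid dendritic-like, 9.47% in macrophage-like, 4.32% in neutrophil-like and 0 in plasma cell-like cells. At least 2 genes gave 37.5% in mesothelial-like, 21.2% in T cell-like, 20% in B cell-like, 12.2% in plasmacytoid dendritic-like, 8.94% in macrophage-like and 8.56% in neutrophil-like cells. At least 5 gave 6.25% in NK cell-like, 1.5% in B cell-like, 0.885% in T cell-like, 0.166% in macrophage-like and 0 in neutrophil-like and plasmacytoid dendritic-like cells. With cells low in tumor markers the neutrophil-like share was 0. Of the class levels of tumor 1 in percent of tumor-like cells, 16 of 29 values moved beyond their interval under other settings. With 3 tumors of 1 group, a median of 1594 UMIs per cell in tumor 2, and tumor markers at 26.0% or more in non-tumor cells of tumors 2 and 3, S phase transcripts of non-tumor cells could be read beside low tumor markers in tumor 1 only.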
